A study of Homo sapiens with 40 samples.

Results

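The genes described here are 51 factors of ribosome biogenesis and the nucleolus, taken by gene symbol from the 12655 genes of the deposited count table, and all 51 of the listed symbols were found there. By role they are MYC, a transcription factor that drives many genes of this pathway, 4 genes of RNA polymerase I, 8 of small nucleolar ribonucleoproteins (snoRNPs), 3 of abundant nucleolar proteins, 18 of small subunit maturation and 17 of large subunit maturation. All 51 passed the filter on low counts in every fit used below.

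RNA was measured in 2 human squamous carcinoma lines, FaDu (hypopharynx) and Kyse30 (oesophagus), both labelled wildtype and both carrying Dendra2, a protein that light switches from green to red fluorescence. Spheroids of 8000 FaDu or 10000 Kyse30 cells were overlaid with type I collagen and kept for 72 h under 1 of 4 conditions: serum-free medium, 9 nM epidermal growth factor (EGF), the same EGF with 10 µg/mL cetuximab (a therapeutic antibody against EGFR, the receptor of EGF), or the same EGF with 100 nM AZD6244 (an inhibitor of the kinase MEK). The EGF spheroids gave 2 groups, cells sorted as non-invasive and cells sorted as invasive, so that each line has 5 groups of 4 libraries and the study 40 libraries. The samples of the other 3 conditions are labelled unselected, so a comparison of them with the non-invasive EGF cells is also one of unselected with selected cells, and the parts of treatment and selection cannot be told apart. A second label describes photoconverted invasive cells for both EGF groups, and the division between them rests on the sample titles and the series' design text. Each line is a single established line, and no label says that the 4 libraries of a group came from separate cultures, so the p-values reflect library-to-library spread alone, which may be technical.

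Ribosomes are built in the nucleolus. RNA polymerase I copies the rDNA repeats into a long precursor, snoRNPs guide the 2'-O-methylation and pseudouridylation of that RNA, and a large set of assembly factors, helicases and GTPases cut and fold it into the small and large subunits before these leave the nucleus. Growth factor signalling through the MAP kinase cascade, in which MEK acts, and through MYC is known to raise rRNA synthesis and the expression of assembly factors in growing cells, and enlarged nucleoli are a classical feature of carcinoma cells. The mRNAs counted here are those of the factors, and rRNA was not analysed here.

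Total counts ran from 2312126 to 5669262 per library in FaDu. In Kyse30 they ran from 2538447 to 4534339 apart from invasive replicate 1, which held 463124 counts and in which 38 of the 51 genes had a count, against 51 in every other library; counts of the 51 genes called in Kyse30 are therefore given with and without that library. The share of mitochondrial RNA was 15.3% in serum-free FaDu and 22.0% in serum-free Kyse30 on average, and 8.38 to 11.4% and 11.5 to 15.8% in the other groups of each line. The nuclear RNA MALAT1 took 6.27% and 9.63% of the counts in Kyse30 non-invasive replicates 1 and 3, against 1.68% and 1.91% in replicates 2 and 4. All 10 squamous epithelial markers that were looked up were present, with a summed level of at least 1619 CPM in every library. Of the other markers, CD68 and ITGB2 for leukocytes, COL1A1 for fibroblasts and CDH5 for endothelium were in the table, and they summed to at most 53.7, 24.7 and 34.6 CPM in any library. The part of these shares in the results below was not tested.

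Levels are CPM, counts relative to library sizes scaled by the trimmed mean of M values (TMM). Reads come from the 3' ends of transcripts, so a level does not grow with transcript length. The 51 genes together made up 4095 ± 321 CPM in serum-free FaDu (SD, n = 4), 9313 ± 358 in non-invasive EGF cells, 11867 ± 1234 in invasive cells, 9496 ± 2506 with cetuximab and 5937 ± 1219 with the MEK inhibitor. The Kyse30 sums were 4813 ± 191, 7326 ± 810.1, 8346 ± 1653, 6269 ± 822 and 5231 ± 473 CPM in the same order, with 9112 CPM for invasive cells without the shallow library. In both lines the serum-free mean of the sum was the lowest and the invasive mean the highest. Single libraries did not all keep that order. FaDu cetuximab replicate 2 had 12856.5 CPM, against at most 12708 in the invasive FaDu libraries. In Kyse30 the lowest MEK inhibitor library, at 4677 CPM, lay below the highest serum-free one, at 5088 CPM. NCL, which encodes nucleolin, had the highest mean of the 51 genes in all 10 groups, from 800.4 CPM in serum-free FaDu to 2587 in invasive FaDu cells. DDX47, a pre-rRNA helicase, had the lowest in all 10, between 3.23 and 8.33 CPM. NCL alone made up from 19.5% of the sum in serum-free FaDu to 27.1% in Kyse30 with cetuximab. These are bulk libraries, in which fewer cells of a type and less RNA per cell cannot be told apart, and a level is a share of the RNA, not an amount per cell.

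Promoters are shown because the genes moved as a group in FaDu and because CACGTG, the E-box sequence that MYC and its partner MAX are known to bind, is a textbook element of this pathway. Promoter windows (GRCh38.p14, 250 bases before to 50 bases from an assigned start) were matched to 43 of the 51 genes. The assigned start equalled the RefSeq gene start in 38 of the 43, among them the genes printed below. It differed for BYSL, NMD3, NPM1, PES1 and UTP15, and BYSL and PES1 are counted here with the element. CACGTG, a palindrome and thus the same on both strands, occurred in 16 of the 43 windows (37.2%), against 10.2% of the 9812 matched genes of the count table and 7.43% of all 27305 windows. It lay within 50 bases of the assigned start in 14 (32.6%), against 4.16% of the matched genes of the table. A match is a description of the sequence and shows no binding. The windows below run 5′ to 3′ on the gene's strand from 100 bases before the start through the first 20 bases of the gene, with CACGTG in capitals. They include 5 genes with the element, FBL and NOP10 of the snoRNPs, RRP9 of the U3 snoRNP, and UTP20 and UTP4 of the small subunit processome. RRP9, UTP20 and UTP4 are counted above under small subunit maturation, and no large subunit gene with the element is shown. The last is NOP16, which had the largest EGF change in FaDu and lacks the element in its window.
FBL at chr19:39846360-39846479, minus strand: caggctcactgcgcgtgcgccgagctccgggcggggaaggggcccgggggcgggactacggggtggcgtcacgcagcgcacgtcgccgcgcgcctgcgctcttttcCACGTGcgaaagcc
RRP9 at chr3:51941885-51942004, minus strand: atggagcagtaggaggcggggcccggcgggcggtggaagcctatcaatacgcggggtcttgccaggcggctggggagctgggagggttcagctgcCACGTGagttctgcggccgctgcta
UTP20 at chr12:101280005-101280124, plus strand: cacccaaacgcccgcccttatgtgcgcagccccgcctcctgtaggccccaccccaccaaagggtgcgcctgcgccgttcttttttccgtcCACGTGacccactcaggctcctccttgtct
UTP4 at chr16:69132549-69132668, plus strand: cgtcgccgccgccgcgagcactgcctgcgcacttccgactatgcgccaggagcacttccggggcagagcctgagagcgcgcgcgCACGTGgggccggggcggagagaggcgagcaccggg
NOP10 at chr15:34343117-34343236, minus strand: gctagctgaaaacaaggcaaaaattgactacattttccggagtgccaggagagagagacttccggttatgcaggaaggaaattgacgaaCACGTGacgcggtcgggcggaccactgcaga
NOP16 at chr5:176388579-176388698, minus strand: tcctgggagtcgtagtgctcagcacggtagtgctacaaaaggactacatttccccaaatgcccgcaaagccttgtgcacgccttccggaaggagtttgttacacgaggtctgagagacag
With the start base counted as 1 and the base before it as -1, the first C of the element stands at 7 in FBL, -5 in RRP9, -10 in UTP20, -16 in UTP4 and -11 in NOP10.

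EGF against serum-free medium asks what the growth factor changed. In FaDu, 47 of the 51 genes rose in non-invasive EGF cells and 0 fell. A gene is called higher or lower where its adjusted p is under 0.05 in edgeR's quasi-likelihood test over all genes. Of all genes tested 50.0% were called, 25.3% as higher and 24.7% as lower. The median log2 fold change of the 51 genes was 1.01, or 2.02-fold, with a range of -0.14 to 1.90, against -0.02 over all genes. The 4 EGF libraries all lay above the 4 serum-free libraries for 48 of the 51 genes, as for 28.0% of all genes. The 4 genes that were not called were MYC and 3 of the small subunit, DDX10, DDX47 and WDR75, with log2 fold changes of 0.16, 0.32, -0.14 and 0.20. The mitochondrial share was lower in the EGF libraries, as given above.

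All 4 RNA polymerase I genes rose in FaDu, with a median of 0.78, below that of the other roles apart from MYC. POLR1B, the second largest subunit, was at 18.8, 13.4, 21.8 and 11.6 CPM in the serum-free libraries and at 28.7, 27.5, 28.1 and 32.2 CPM in the EGF libraries. The groups did not overlap, and the log2 fold change was 0.84 (SE 0.22, adjusted p = 0.00202). For POLR1A, the largest subunit, the levels were 32.8 ± 7.23 and 48.0 ± 5.03 CPM (SD, n = 4) without overlap, with a log2 fold change of 0.56 (SE 0.16, adjusted p = 0.00555). RRN3, the factor that brings the polymerase to rDNA promoters, rose by 0.85 (SE 0.18) and POLR1C, a subunit shared with RNA polymerase III, by 0.72 (SE 0.23) on the log2 scale.

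All 8 snoRNP genes rose, with a median log2 fold change of 1.25. DKC1 encodes dyskerin, the pseudouridine synthase of box H/ACA particles. It was at 121, 172, 128 and 122 CPM without serum and at 389, 429, 479.7 and 449 CPM with EGF, a log2 fold change of 1.68 (SE 0.25, adjusted p = 1.37e-05). Its lowest EGF library was above its highest serum-free one, and the fold change was 3.21. NOLC1, a chaperone of snoRNPs, went from 48.6, 69.0, 59.3 and 58.0 CPM to 190.0, 199, 217 and 185 CPM, a change of 1.75 (SE 0.15, adjusted p = 2.82e-10). The box C/D core proteins NOP56 and NOP58 rose by 1.53 (SE 0.23) and 1.43 (SE 0.16). FBL, the 2'-O-methyltransferase fibrillarin of the same particles, was at 270.4, 295, 292 and 297 CPM and then at 592, 658, 558 and 576 CPM, a change of 1.05 (SE 0.16, adjusted p = 5.57e-06). NHP2 of the box H/ACA core rose least of the 8, by 0.46 (SE 0.15). NOP56 and NHP2 have pseudogenes in the count table, and so have NPM1 and RRN3, so reads of these 4 genes may have been split or lost in counting and their values are uncertain.

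The 3 abundant nucleolar proteins rose as well. NCL was at 678, 969, 747 and 808 CPM in serum-free medium and at 1752, 2049.7, 1983 and 2029 CPM with EGF, a log2 fold change of 1.29 (SE 0.24, adjusted p = 1.44e-04). NPM1, nucleophosmin, which carries proteins between nucleolus and cytoplasm, was at 248, 295, 266 and 259.9 CPM and 531, 606, 548 and 492 CPM, a change of 1.03 (SE 0.11, adjusted p = 3.75e-08). The groups of both genes were apart, with no library of one inside the range of the other. DDX21, a helicase of rRNA transcription and processing, changed by 1.57 (SE 0.19, adjusted p = 4.06e-07).

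Of the small subunit genes 15 of 18 rose, with a median of 0.90 over the 18. RRP12, an export factor of the pre-40S particle, had the largest change, from 19.6, 19.5, 20.4 and 13.4 CPM to 37.6, 62.0, 66.2 and 61.4 CPM, or 1.64 (SE 0.27, adjusted p = 2.05e-05). Replicate 1 of the EGF cells was the lowest of its group and still above all 4 serum-free libraries. BYSL and TSR1, which act on the same particle, rose by 1.47 (SE 0.24) and 1.34 (SE 0.22). The large subunit genes all rose, 17 of 17, with a median of 1.02. NOP16, a pre-60S factor, had the largest change of all 51 genes, from 16.7, 24.6, 22.1 and 14.6 CPM to 81.6, 69.0, 79.8 and 63.1 CPM, or 1.90 (SE 0.21, adjusted p = 3.33e-08), or 3.73-fold. BOP1 of the PeBoW complex, which is needed for 28S rRNA maturation, followed with 14.7, 21.3, 14.2 and 18.7 CPM against 57.6, 58.9, 63.5 and 56.8 CPM, a change of 1.77 (SE 0.21, adjusted p = 1.05e-07). MRTO4, which holds the place of the ribosomal stalk on the pre-60S particle, rose by 1.44 (SE 0.18). The 2 partners of BOP1 in that complex rose less, WDR12 by 0.47 (SE 0.16) and PES1 by 0.91 (SE 0.29).

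**Figure D1:**
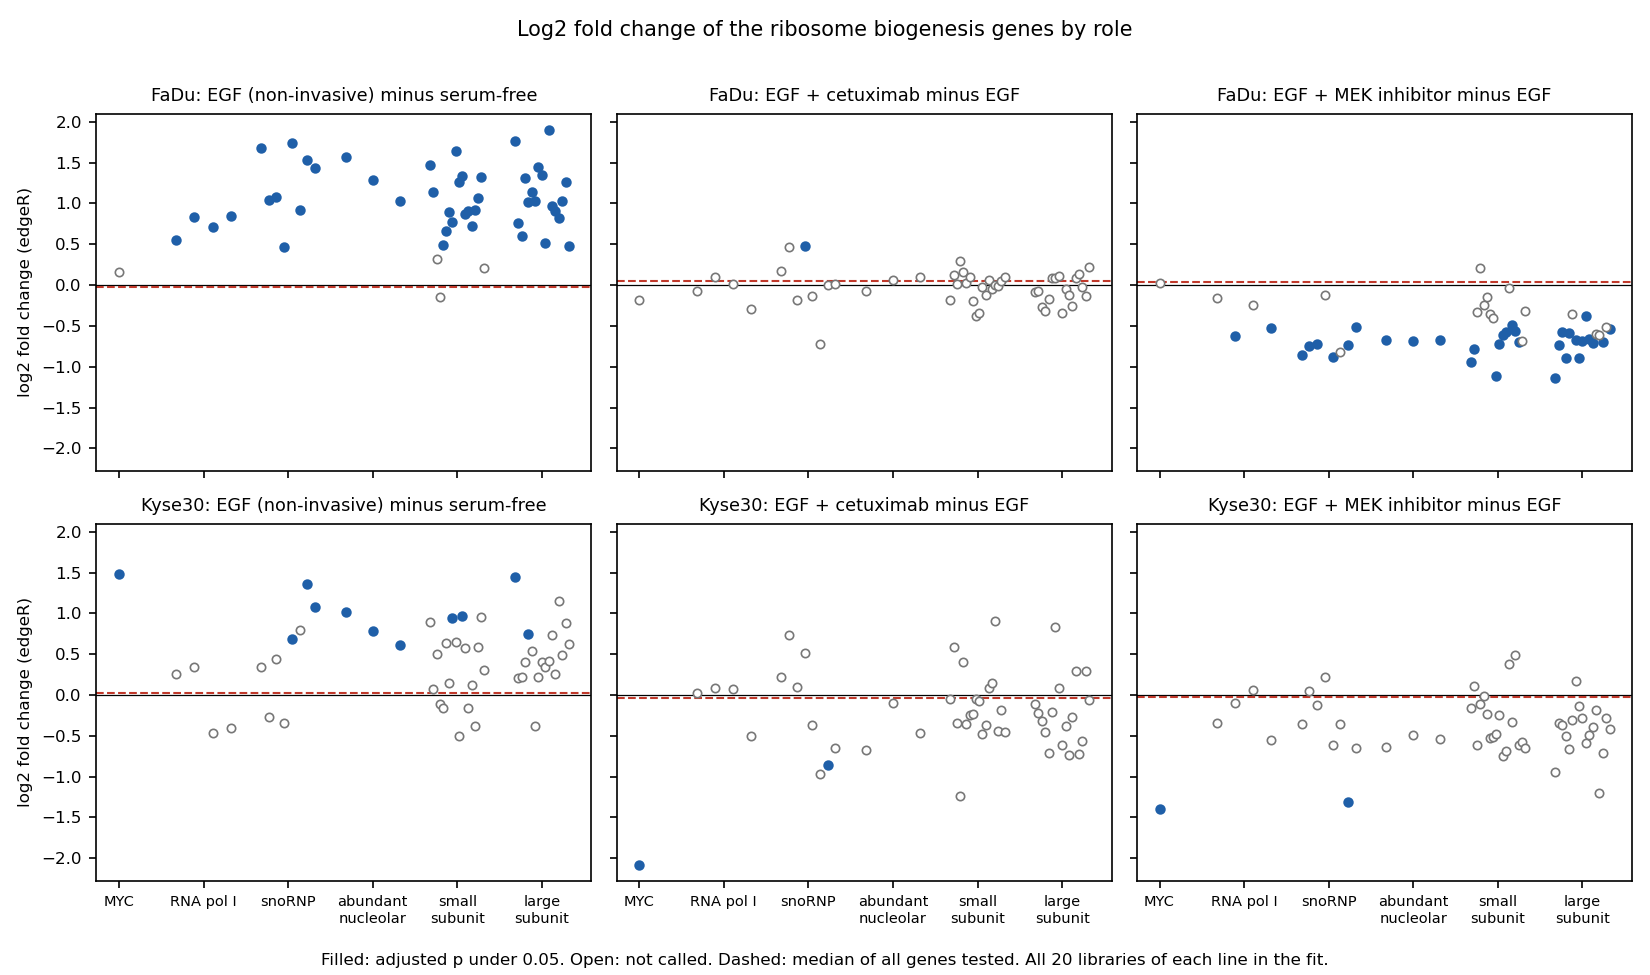
Log2 fold change of each of the 51 genes (points, grouped by role on the x axis) in 3 comparisons for FaDu (top) and Kyse30 (bottom), with filled points for an adjusted p under 0.05 and a dashed line at the median of all genes tested. In FaDu the EGF panel holds 47 filled points above 0, the cetuximab panel 1 and the MEK inhibitor panel 33 below 0.

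Cetuximab and the MEK inhibitor were given together with EGF, and their comparison with EGF asks how far each blocks its effect. In FaDu, 1 of the 51 genes was higher with cetuximab than in non-invasive EGF cells and 0 were lower, where 8.56% of all genes were called (3.64% higher, 4.93% lower). DESeq2 called 1, and 4 genes had an unadjusted p under 0.05. The median was -0.01 with a range of -0.73 to 0.48, and in all 51 genes the libraries of both groups overlapped. Most of all genes overlapped too, since groups were apart for 7.44% as higher and 7.65% as lower with cetuximab. The gene called was NHP2, at 118, 171, 143 and 101 CPM with cetuximab against 97.9, 109.9, 92.7 and 79.3 CPM, a change of 0.48 (SE 0.15, adjusted p = 0.0376). It was not called in a fit of these 2 groups alone or in a fit over all 40 libraries. The cetuximab libraries were widely spread. DKC1 was at 462, 819, 425 and 258 CPM and NCL at 1879, 3214, 1659 and 1377 CPM, with replicate 2 the highest and replicate 4 the lowest for both. The log2 difference from EGF was 0.17 (SE 0.24) for DKC1, 0.06 (SE 0.23) for NCL and -0.09 (SE 0.19) for BOP1. A p that misses the threshold in libraries of this spread does not show that the groups were alike. Without cetuximab replicate 1, 1 gene was higher and 2 were lower, without cetuximab replicate 4, 2 were higher, and without cetuximab replicate 3 or EGF replicate 1, 3 or 4 none was called. Against serum-free medium 46 genes were higher with cetuximab and 0 lower (all genes 43.8% (22.7% higher, 21.1% lower)), with a median of 0.98. The largest were DKC1 at 1.85 (SE 0.25), NOP16 at 1.77 (SE 0.21) and BOP1 at 1.68 (SE 0.21). This comparison and the EGF one share the serum-free libraries.

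With the MEK inhibitor 33 of the 51 genes fell in FaDu relative to EGF alone and 0 rose, where 29.7% of all genes were called and 14.9% were called lower. The median was -0.61 and the range -1.13 to 0.20, against 0.03 over all genes. No library of one group lay inside the range of the other for 31 genes, all of them lower, as for 16.5% of all genes. BOP1 had the largest fall, to 28.9, 28.1, 25.2 and 25.9 CPM in the 4 inhibitor libraries, a log2 change of -1.13 (SE 0.20, adjusted p = 1.01e-04). RRP12 followed at 32.8, 28.6, 21.1 and 23.2 CPM, a change of -1.11 (SE 0.26, adjusted p = 0.00219), and BYSL at 26.4, 31.4, 16.5 and 14.5 CPM, a change of -0.95 (SE 0.23, adjusted p = 0.00273). For RRP12 and BYSL, too, every inhibitor library was below every EGF library. Among the snoRNP genes 6 of 8 fell, led by NOLC1 with -0.88 (SE 0.14) and DKC1 with -0.85 (SE 0.25). NPM1 was at 324, 409.6, 313 and 322 CPM with the inhibitor, a change of -0.67 (SE 0.11, adjusted p = 5.81e-05), and FBL at 336, 433, 316 and 336 CPM, a change of -0.75 (SE 0.16, adjusted p = 7.98e-04). Of the RNA polymerase I genes POLR1B and RRN3 fell, by 0.63 and 0.53 on the log2 scale, while POLR1A, at -0.16 (SE 0.16), and POLR1C, at -0.24 (SE 0.23), were not called. Against serum-free medium 17 genes were higher with the inhibitor (19.4% of all genes called (10.8% higher, 8.63% lower)), with a median of 0.36, led by NOP16 at 1.23 (SE 0.21), NOP58 at 0.91 (SE 0.16) and DDX21 at 0.89 (SE 0.19). That count was 7 in 1 fit over both lines, 8 without inhibitor replicate 2 or serum-free replicate 4, and 9 without serum-free replicate 1 or 3.

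The 4 inhibitor libraries of FaDu differed among themselves. The 51 genes summed to 7248, 6678, 5111 and 4709 CPM in replicates 1 to 4, beside mitochondrial shares of 14.6%, 11.1%, 9.90% and 7.87%, and their part in these values was not tested. NOP56 was at 466, 303, 227 and 181 CPM, beside 471, 488, 511 and 484 CPM with EGF and 167, 183, 172 and 152 CPM without serum. Replicate 1 lay just below the lowest EGF library, and replicate 4 lay within the serum-free range. The count of genes lower than with EGF was 23 without replicate 4 and 39 without replicate 1 of the inhibitor group. It was 16 in 1 fit over the 40 libraries of both lines.

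Cetuximab and the MEK inhibitor were then compared directly. In FaDu 27 of the 51 genes were lower with the MEK inhibitor than with cetuximab and 0 were higher, where 19.7% of all genes were called (8.54% higher, 11.2% lower), with a median of -0.54. FBL had the largest difference, 336, 433, 316 and 336 CPM with the MEK inhibitor and 753, 1174, 740.1 and 621 CPM with cetuximab, a log2 difference of -1.21 (SE 0.16, adjusted p = 4.86e-06). The 2 groups of FBL values did not overlap. BOP1 differed by -1.04 (SE 0.20, adjusted p = 4.84e-04) and DKC1 by -1.02 (SE 0.25, adjusted p = 0.00551). The count was 14 without replicate 4 and 16 without replicate 3 of the MEK inhibitor group, 12 in a fit of the 2 groups alone and 10 in 1 fit over both lines. Each inhibitor was used at 1 dose, so the difference is between these doses.

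**Figure D2:**
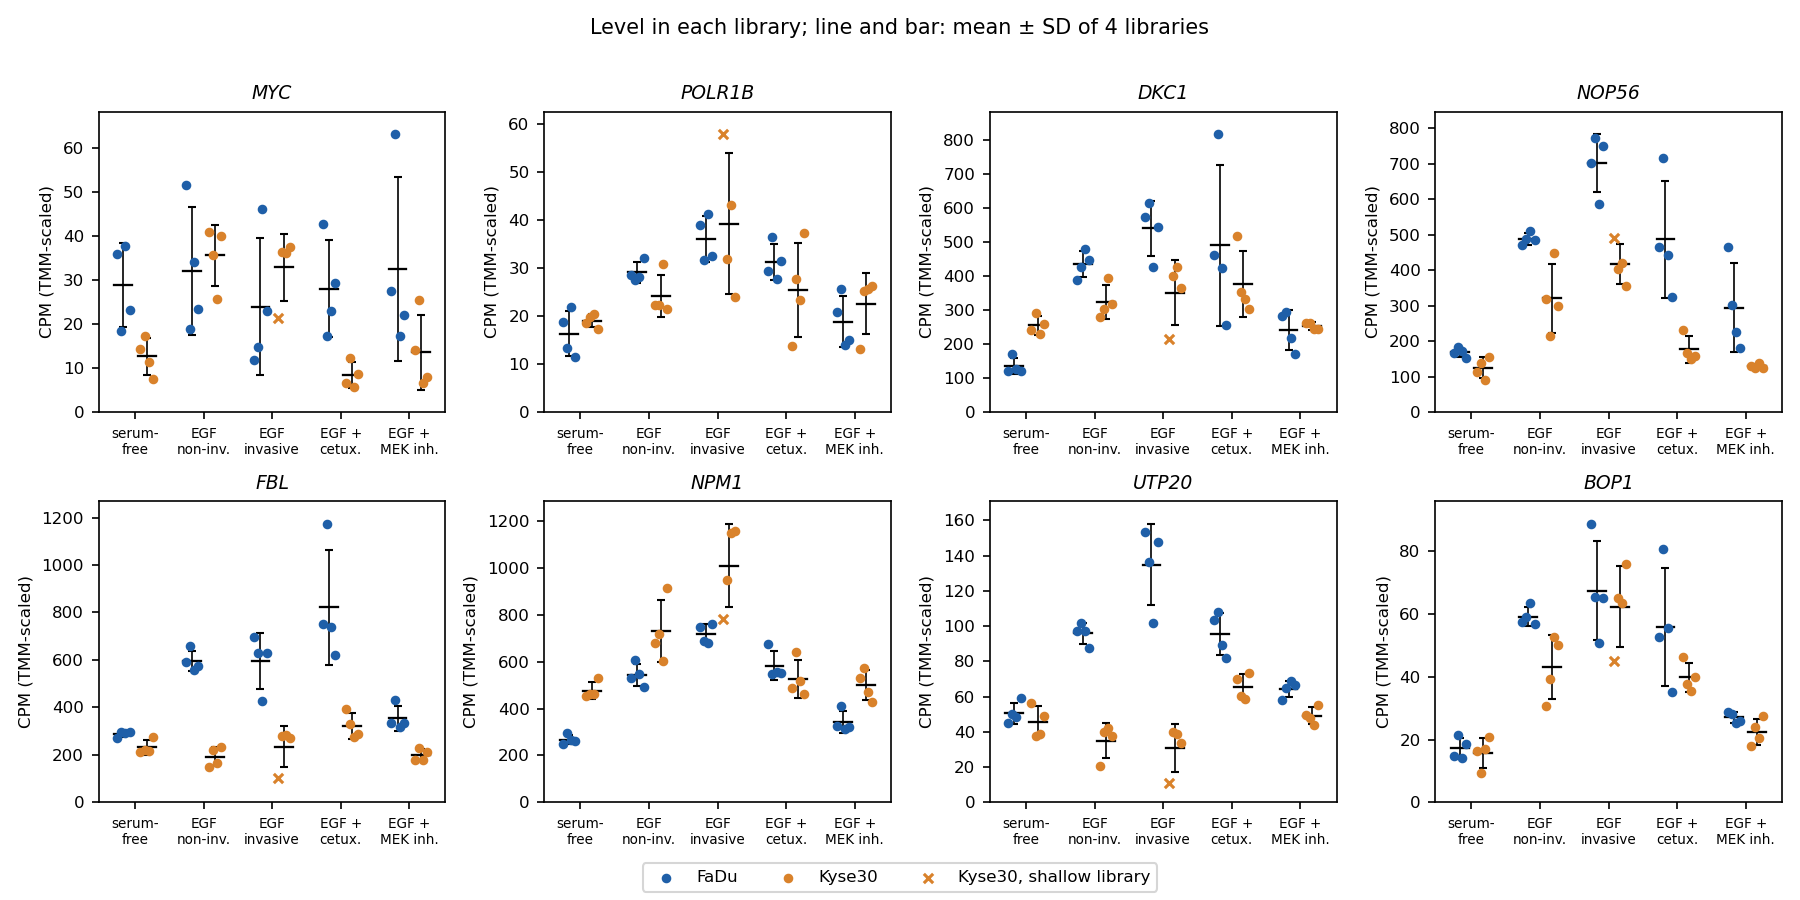
Level in CPM (y axis, linear from 0) of 8 genes in each of the 40 libraries, by group (x axis) and line (colour), with the mean and SD of 4 libraries in black and the shallow Kyse30 invasive library as a cross. MYC differs between groups in Kyse30 and overlaps in FaDu, whereas FBL and UTP20 are higher in all 4 EGF libraries than in all 4 serum-free libraries of FaDu and not so in Kyse30.

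The comparison of invasive with non-invasive cells of the same EGF spheroids asks what marks the cells that left the spheroid. In FaDu 5 of the 51 genes were higher in invasive cells and 0 lower, where 3.00% of all genes were called (0.659% higher, 2.34% lower). The genes were CMSS1, DDX10, UTP14A and UTP20 of the small subunit and EBNA1BP2 of the large subunit. CMSS1, the homologue of a yeast small subunit factor, was at 96.5, 91.6, 97.5 and 94.0 CPM in invasive and 64.8, 70.3, 54.8 and 58.1 CPM in non-invasive cells, a log2 difference of 0.61 (SE 0.15, adjusted p = 0.0224). DDX10, a helicase of the small subunit processome that EGF itself had not moved past the threshold, was at 85.9, 102, 87.4 and 98.1 CPM against 64.3, 56.8, 63.1 and 66.0 CPM, a difference of 0.58 (SE 0.15, adjusted p = 0.0296). EBNA1BP2 was at 375, 368, 389.6 and 439 CPM against 277, 276, 262 and 241 CPM, a difference of 0.57 (SE 0.12, adjusted p = 0.00608). In all 3 genes every invasive library was above every non-invasive one. Over the 51 genes the median difference was 0.31, 46 of the 51 differences were positive, and 24 genes had groups that did not overlap, as 5.00% of all genes did in that direction. The count of 5 was 13 in a fit of these 2 groups, 10 with DESeq2 and 0 in 1 fit over both lines. It was 1 without non-invasive replicate 3 or 4, 2 without non-invasive replicate 1 or 2 or invasive replicate 2 or 4, and 3 without invasive replicate 1. In Kyse30 0 genes were higher and 0 lower by edgeR (0.409% of all genes called (0.0668% higher, 0.342% lower)), with 5 at an unadjusted p under 0.05, 9 without the shallow library, and 2 called by DESeq2. The median over the 51 genes was 0.11 with all libraries, with 34 positive differences, against a median of -0.15 over all genes. It was 0.28 without the shallow library, 1 of the 4 invasive ones compared, with 45 positive differences, against -0.04 over all genes. In that fit edgeR again called 0 and 0, and 2.10% of all genes were called (0.729% higher, 1.37% lower).

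In Kyse30 11 of the 51 genes rose with EGF and 0 fell, where 12.9% of all genes were called (8.10% higher, 4.76% lower). The shallow library belongs to neither of these 2 groups but to their shared estimate of spread. Without it 21 rose and 0 fell, where 27.8% of all genes were called (15.9% higher, 12.0% lower). The median was 0.44 with all libraries, against 0.03 over all genes. MYC had the largest change, 14.3, 17.3, 11.4 and 7.63 CPM without serum and 40.9, 35.7, 25.8 and 39.9 CPM with EGF, or 1.48 (SE 0.40, adjusted p = 0.0144). BOP1 came next with 16.5, 9.32, 16.9 and 20.8 CPM and 30.8, 39.2, 52.7 and 50.0 CPM, a change of 1.45 (SE 0.30, adjusted p = 0.00208), followed by NOP56 with 115, 140.1, 90.4 and 157 CPM and 320.2, 216, 449 and 300.0 CPM, a change of 1.35 (SE 0.22, adjusted p = 1.35e-04). In these 3 genes each EGF library was above each serum-free library. NOP58 rose by 1.07 (SE 0.22), NOLC1 by 0.68 (SE 0.18), and the abundant proteins DDX21, NCL and NPM1 by 1.02 (SE 0.25), 0.79 (SE 0.18) and 0.61 (SE 0.17). TSR1 and NOP14 of the small subunit rose by 0.97 (SE 0.23) and 0.94 (SE 0.25), and GNL2, a nucleolar GTPase of the large subunit, by 0.75 (SE 0.25). None of the 4 RNA polymerase I genes was called in either fit, and POLR1C and RRN3 had negative values, -0.46 (SE 0.28) and -0.40 (SE 0.43). Leaving out the shallow library together with the 2 non-invasive libraries rich in MALAT1 gave 13 genes called.

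Few of these genes were called with the inhibitors in Kyse30 in the fit of all libraries. With cetuximab 0 rose and 2 fell relative to EGF, MYC and NOP56, where 4.93% of all genes were called (1.85% higher, 3.08% lower). MYC was at 6.74, 12.4, 5.77 and 8.76 CPM with cetuximab, below all 4 EGF libraries, a change of -2.08 (SE 0.40, adjusted p = 0.00254), and NOP56 at 232, 168, 149.8 and 159 CPM, a change of -0.86 (SE 0.22, adjusted p = 0.019). With the MEK inhibitor 0 rose and 2 fell, again MYC and NOP56, where 4.56% of all genes were called (1.65% higher, 2.91% lower). MYC was at 14.1, 25.4, 6.75 and 7.97 CPM, a change of -1.39 (SE 0.39, adjusted p = 0.0393), and NOP56 at 130.3, 125, 139 and 125 CPM, a change of -1.31 (SE 0.22, adjusted p = 4.63e-04). Either share of the 51 genes, 3.92%, was near that of all genes. Those NOP56 values lie within the range of its serum-free libraries. Either count was 1 without a single library of several others (cetuximab replicate 2, 3 or 4 or EGF replicate 3 for cetuximab, EGF replicate 1 or 4 or inhibitor replicate 1, 3 or 4 for the MEK inhibitor). In fits of the 2 groups compared alone, 8 genes were called for cetuximab and 16 for the MEK inhibitor. The median with the MEK inhibitor was -0.40, with 44 negative changes, against -0.02 over all genes. Every inhibitor library lay below every EGF library for 20 genes and above for 1, as for 10.8% and 9.63% of all genes. For cetuximab the median was -0.24, with 35 negative changes, against -0.03. Its libraries all lay below for 10 genes and above for 2, as for 10.5% and 9.65%.

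Without the shallow library 5 genes were higher and 9 lower with cetuximab (17.1% of all genes called, 7.37% higher and 9.76% lower). The higher ones were UTP20 at 0.91 (SE 0.20), GNL3L at 0.84 (SE 0.23), FBL at 0.74 (SE 0.16), CMSS1 at 0.58 (SE 0.20) and NHP2 at 0.51 (SE 0.16). UTP20, a scaffold of the small subunit processome, was at 70.0, 60.2, 58.9 and 73.4 CPM with cetuximab and at 20.4, 39.9, 42.0 and 37.6 CPM with EGF, with all 4 cetuximab libraries above. FBL was at 394, 328, 276 and 287 CPM against 151, 222, 164 and 231 CPM, again without overlap. Beside MYC and NOP56 the lower ones were NOP16, GNL2, DDX21, NOP58, RRP1B, NPM1 and EBNA1BP2, between -0.73 and -0.45. With the MEK inhibitor 0 were higher and 16 lower (14.4% of all genes called, 5.84% higher and 8.56% lower). Among the 16 were BOP1 at -0.94 (SE 0.23), TSR1 at -0.75 (SE 0.18) and DDX21 at -0.63 (SE 0.18).

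Against serum-free medium, 2 genes were higher with cetuximab in Kyse30 and 0 lower (3.13% of all genes called (1.88% higher, 1.25% lower)). They were BOP1 at 1.33 (SE 0.30, adjusted p = 0.0142) and NCL at 0.68 (SE 0.18, adjusted p = 0.0378). Leaving out the shallow library gave 8 higher and 1 lower (15.1%, 8.72% higher and 6.42% lower). With the MEK inhibitor edgeR called 0 higher and 0 lower, with 2 at an unadjusted p under 0.05 and 0 called by DESeq2 (3.90% of all genes called (2.29% higher, 1.61% lower)). Without the shallow library it called 1, RRN3, which was lower at -0.95 (SE 0.24, adjusted p = 0.0078) (15.4%, 8.52% higher and 6.90% lower). Between the MEK inhibitor and cetuximab 0 were higher and 0 lower by edgeR (1.18% (0.593% higher, 0.585% lower)), with 5 at an unadjusted p under 0.05 and 1 called by DESeq2. Without the shallow library 3 were lower with the MEK inhibitor (4.66%, 2.24% higher and 2.43% lower). These were BOP1 at -0.83 (SE 0.23), FBL at -0.69 (SE 0.16) and DKC1 at -0.57 (SE 0.16).

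**Figure D3:**
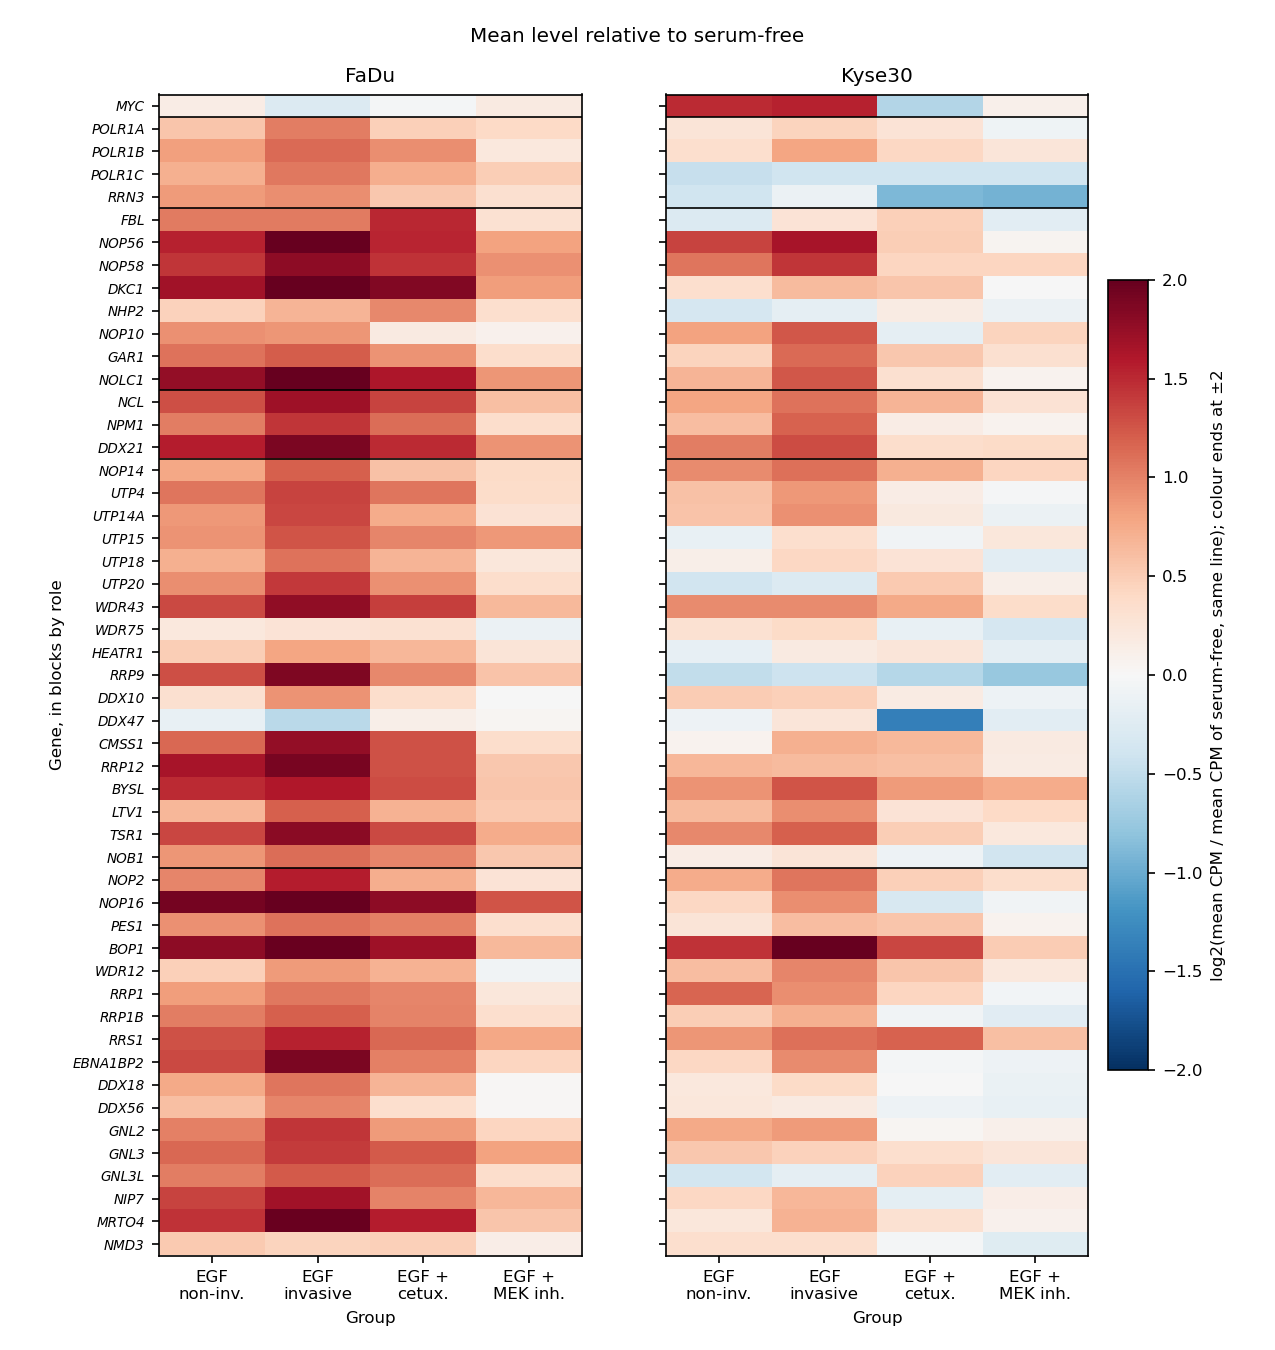
Mean level of each of the 51 genes (rows, in blocks by role) in 4 groups of each line, as log2 of its ratio to the serum-free mean of the same line, with the colour ending at 2 in either direction and the Kyse30 invasive mean taken without the shallow library. All FaDu rows except DDX47 are above 0 in the non-invasive EGF column, and in the same column of Kyse30 the MYC row has the highest value.

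Whether EGF acted differently on the lines was tested as an interaction, the Kyse30 change minus the FaDu change, in 1 fit of the 40 libraries. It was called for 11 of the 51 genes, all with a smaller change in Kyse30, where 15.7% of all genes were called (9.48% higher, 6.20% lower). The count without the shallow library was 18, again all lower (24.7% of all genes, 13.8% higher and 10.9% lower). RRP9, a protein of the U3 snoRNP, differed most with all libraries, by -1.77 (SE 0.42, adjusted p = 0.0028). Its EGF libraries were at 26.4, 31.4, 22.7 and 21.3 CPM in FaDu, all above the serum-free ones at 6.54, 14.1, 6.53 and 14.4 CPM. In Kyse30 they were at 13.5, 13.6, 15.4 and 10.1 CPM, overlapping the serum-free ones at 14.3, 25.4, 10.6 and 24.2 CPM. NOP16 differed by -1.48 (SE 0.34, adjusted p = 0.002) and GNL3L, a nucleolar GTPase, by -1.41 (SE 0.42, adjusted p = 0.0163). The other 8 were DKC1, FBL, UTP20, MRTO4, POLR1C, CMSS1, NOLC1 and EBNA1BP2, between -1.34 and -0.90. The log2 fold change was larger in FaDu for 44 of the 51 genes, both with all libraries and without the shallow one. The exceptions were DDX10, DDX47, MYC, NOP14, RRP1, WDR12 and WDR75. With all libraries the median interaction was -0.53 over the 51 genes, against 0.08 over all genes. For MYC the interaction had the opposite sign, 1.33 (SE 0.58, adjusted p = 0.119), and was not called. Of the 47 genes called higher in FaDu, 10 were also called in Kyse30 with all libraries (21.3%), and these are 90.9% of the 11 called there. Without the shallow library 20 of the 47 were also called in Kyse30 (42.6%), which are 95.2% of the 21 called there. MYC was the remaining Kyse30 gene in both fits. Among all 51 genes, EGF gave a call for 92.2% in FaDu. The Kyse30 share was 21.6%, or 41.2% once the shallow library was left out. The overlap lies close to these shares, so it cannot tell whether the lines agreed gene by gene.

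UTP20 was also called for a difference between the lines in the MEK inhibitor effect, by 1.07 (SE 0.31, adjusted p = 0.0334). As 1 gene of the 51 it makes 1.96%, below the 5.10% of all genes called (2.27% higher, 2.83% lower). With the replicate block it was not called. It was not called without FaDu EGF replicate 1, 2 or 3, FaDu inhibitor replicate 1, Kyse30 EGF replicate 1 or Kyse30 inhibitor replicate 1, 2 or 4. Its FaDu level fell from 97.3, 102, 97.2 and 87.3 CPM with EGF to 58.2, 64.8, 68.8 and 66.4 CPM with the inhibitor. Its Kyse30 values with the inhibitor were 49.5, 47.9, 43.9 and 55.5 CPM, all above the 4 EGF libraries. That Kyse30 change was not called, with or without the shallow library. Without the shallow library CMSS1, FBL and MRTO4 were called as well (11.4%, 5.82% higher and 5.63% lower). For cetuximab the interaction called 0 higher and 0 lower (1.31% (0.751% higher, 0.561% lower)), and UTP20 alone without the shallow library (3.73%, 2.30% higher and 1.43% lower). For invasive against non-invasive cells it called 0 higher and 0 lower in edgeR (0.182% of all genes (0.142% higher, 0.0395% lower)), with 5 and 2 genes at an unadjusted p under 0.05 in the cetuximab and the invasive test, and 2 and 0 called by DESeq2.

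**Figure D4:**
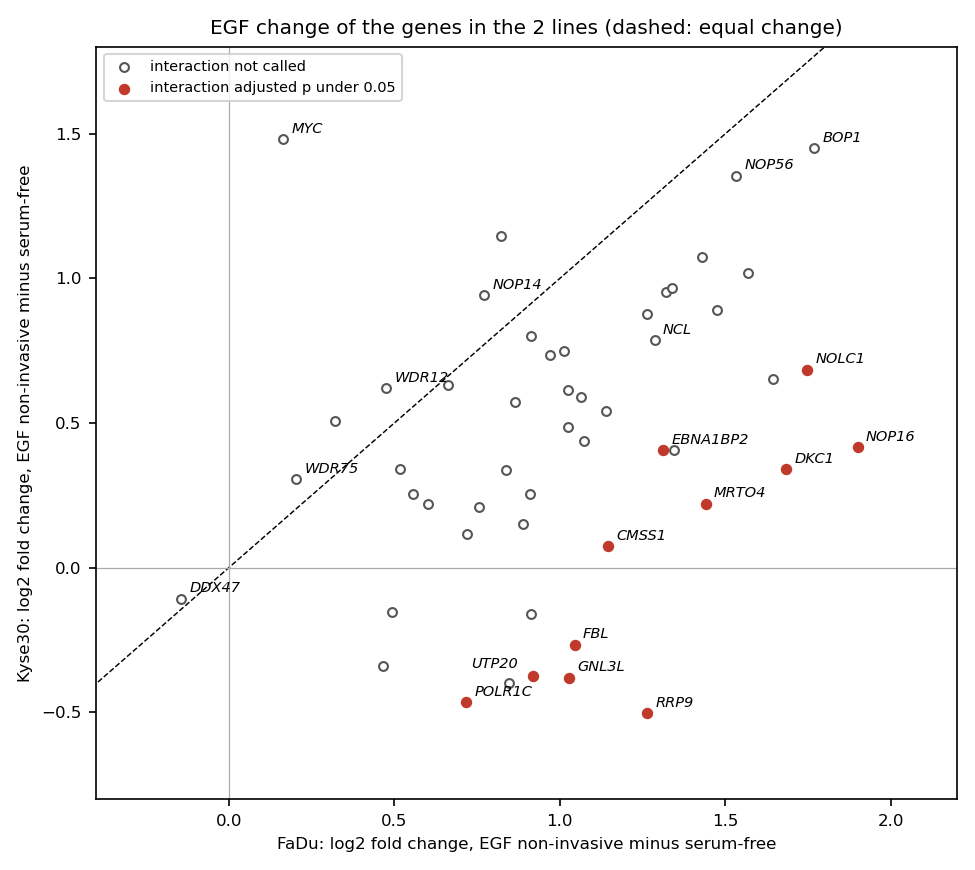
Log2 fold change with EGF of the 51 genes in FaDu (x axis) and Kyse30 (y axis), with red points for the 11 genes whose change differed between the lines at an adjusted p under 0.05 and a dashed line of equal change. The red points lie below the line, and MYC stands at 0.16 and 1.48, above it.

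The starting levels differed between the lines. In serum-free medium 12 of the 51 genes were higher in Kyse30 and 7 lower, where 43.5% of all genes were called (21.5% higher, 22.0% lower). The counts were 13 and 10 without the shallow library (52.1%, 26.3% higher and 25.8% lower). The share of the 51 genes called with all libraries, 37.3%, was not above that of all genes. WDR75, of the small subunit processome, was at 57.5, 70.0, 56.6 and 54.2 CPM in Kyse30 and at 18.4, 22.1, 19.9 and 15.6 CPM in FaDu, a log2 difference of 1.63 (SE 0.26, adjusted p = 1.46e-06). NOP16 followed at 1.22 (SE 0.25, adjusted p = 1.03e-04). Of the 11 genes with an EGF interaction, 7 started higher in Kyse30 without serum, in the fits with and without the shallow library: CMSS1, DKC1, EBNA1BP2, NOLC1, NOP16, POLR1C and RRP9. GNL3L started lower, and FBL, MRTO4 and UTP20 were not called. The same serum-free libraries enter the interaction, so the 2 results are not independent. The genes lower in Kyse30 were UTP18 at -1.19 (SE 0.29), MYC at -1.18 (SE 0.43), WDR12 at -1.06 (SE 0.30), GNL3L at -0.99 (SE 0.30), LTV1 at -0.92 (SE 0.29), DDX10 at -0.59 (SE 0.22) and NMD3, the export adapter of the large subunit, at -0.59 (SE 0.18). Levels of 2 lines were scaled together in this fit, and their CPM values come from separate scalings of each line.

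MYC, the transcription factor of the set, was called in Kyse30 and in no FaDu comparison. Its interactions between the lines were not called, so these calls do not show that the lines differed. They were 1.33 for EGF, -1.85 for cetuximab, -1.41 for the MEK inhibitor and 0.35 for invasive cells. In FaDu it was at 35.9, 18.5, 37.7 and 23.2 CPM in serum-free medium, 51.5, 18.9, 34.1 and 23.5 CPM in non-invasive and 12.0, 14.8, 46.1 and 23.0 CPM in invasive EGF cells, 42.7, 17.3, 22.9 and 29.4 CPM with cetuximab and 27.5, 63.2, 17.4 and 22.1 CPM with the MEK inhibitor. All 5 ranges overlapped, and none of the 7 comparisons was called, with log2 changes between -0.42 and 0.21 and standard errors of 0.46 to 0.47. The invasive Kyse30 libraries were at 21.5, 36.4, 36.2 and 37.6 CPM, the first being the shallow one with 10 reads. From highest to lowest, the Kyse30 group means were 35.6 ± 6.90 (SD, n = 4) in non-invasive, 32.9 ± 7.65 in invasive, 13.6 ± 8.55 with the MEK inhibitor, 12.7 ± 4.15 serum-free and 8.42 ± 2.94 CPM with cetuximab. The 2 EGF groups did not differ beyond their spread, at -0.08 (SE 0.39), nor did the 3 others among themselves, at 0.09 (SE 0.40) for the MEK inhibitor and -0.59 (SE 0.41) for cetuximab against serum-free medium and 0.69 (SE 0.40) between the inhibitors.

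The genes with and without CACGTG in the promoter window are given side by side. In FaDu with EGF 16 of 16 genes with the element rose, with a median log2 fold change of 0.99, and 24 of 27 without it, with a median of 0.89. With the MEK inhibitor 11 of 16 and 16 of 27 fell, with medians of -0.69 and -0.58. In Kyse30 with EGF 2 of 16 and 5 of 27 rose with all libraries, with medians of 0.58 and 0.34. The counts were 7 of 16 and 8 of 27 without the shallow library, so the order of these shares turns with that library. These are descriptions of 43 genes, and the other 8 had no window here.

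Other genes of the pathway, listed from general knowledge with earlier results of these data known, are given for comparison and are no independent evidence. Of 137 further ribosome biogenesis genes 89 rose and 3 fell with EGF in FaDu, with a median of 0.66. With the MEK inhibitor 1 rose and 56 fell, with a median of -0.41, and with cetuximab 1 rose and 4 fell relative to EGF. In Kyse30 with EGF 4 rose and 2 fell, or 22 and 4 without the shallow library. The shares of all genes called in these comparisons are those given above. Of the 12 RNA polymerase I and rDNA factors among the 137, 6 rose and 1 fell with EGF in FaDu, with a median of 0.57. Among large subunit factors and snoRNP assembly genes the largest rises in FaDu were those of LYAR, a nucleolar protein, at 2.33 (SE 0.22, adjusted p = 5.73e-09), TCOF1, the treacle protein of rDNA transcription, at 2.13 (SE 0.23, adjusted p = 5.09e-08), RUVBL1, an ATPase of snoRNP assembly, at 1.48 (SE 0.18, adjusted p = 1.19e-07), and MAK16 of the large subunit at 1.68 (SE 0.23, adjusted p = 9.52e-07). Of 12 genes of the MYC network tested in FaDu, 3 rose with EGF (25%) and 4 fell (33.3%), against 25.3% and 24.7% of all genes. In Kyse30 1 of the 12 rose and 0 fell (all genes 8.10% higher, 4.76% lower), or 3 and 2 without the shallow library (15.9% and 12.0%). MYCL, a paralogue of MYC, fell in FaDu, at -4.65 (SE 0.47, adjusted p = 5.81e-09). MXD1, an antagonist of MYC, rose in both lines, by 1.99 (SE 0.51, adjusted p = 0.00333) in FaDu and 2.32 (SE 0.59, adjusted p = 0.00916) in Kyse30.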

How the data were processed

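RNA of 40 libraries, 4 in each of 10 groups, was measured with a 3' end library kit per the labels' protocols. The deposited values are whole-number read counts per gene. STAR, HTSeq and GRCh38 are named in the submitters' processing notes, with versions, annotation and strand setting not given in the sources used here. All count columns were matched to samples by title, and 0 were left over. The 51 genes and the other lists were chosen with earlier results of these data known.

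Counts were tested with edgeR 4.0.16 (R 4.3.3), with TMM scaling, the filterByExpr filter by group and a robust quasi-likelihood F test. The 20 libraries of a line were fitted together, and the comparison of the lines and the interactions used the 40 libraries with 10 groups. P-values were adjusted by Benjamini-Hochberg over all genes tested, and called means an adjusted p under 0.05. The standard error is the absolute log2 fold change divided by the square root of F. The code was tested on simulated data. With 4 libraries a group, the depth and the spread between libraries limit the precision.

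Replicates of a group differed by more than sampling noise in all 60 pairs (chi-square per degree of freedom 2.42 to 67.4). Only for Kyse30 MEK inhibitor against cetuximab did libraries with the same number deviate together in all 4 pairs (r 0.108 to 0.366). For FaDu MEK inhibitor against cetuximab r was over 0.1 in 2 pairs, at 0.195 and 0.328. Kyse30 invasive against EGF also had 2, at 0.15 and 0.191. No label says that a number marks a shared culture or day.

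Genes were named by rule: MYC, POLR1A, POLR1B, FBL, DKC1, NCL and NPM1, the 3 largest changes called in each role with EGF, the 3 largest called in every other comparison or interaction, and called genes that went against the majority. Others were named after their values were seen, to complete a count or an order. Alternatives were RLE scaling, no filter, a filter of 10 CPM in 4 libraries, a replicate block, DESeq2 1.42.0, limma-voom (limma 3.58.1), a fit of the 2 groups compared, 1 fit over 40 libraries, and leaving out each library in turn or 3 Kyse30 libraries. Leaving out the shallow library from every Kyse30 fit was added after seeing the data.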

Additional observations from a re-analysis of the deposited data

Results flagged for a closer look

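For 33 named genes, 330 groups of 4 libraries were examined, and in 22 of them (6.67%) 1 library lay far from the other 3, with a gap to its nearest neighbour that was most of the group's range. The 10 groups of the summed level of the 51 genes held no such library. Chance gives about 1 in 20 groups. No cause was tested. The shallow Kyse30 invasive replicate 1 accounted for 5 of them. It was low for FBL at 103 CPM, MYC at 21.5 CPM, NHP2 at 2.15 CPM, and high for NOP16 at 232 CPM and RRP12 at 172 CPM. The other high FaDu values were DKC1 in serum-free replicate 2 at 172 CPM, FBL in MEK inhibitor replicate 2 at 433 CPM, NOP58 in invasive EGF replicate 4 at 444 CPM, NPM1 in cetuximab replicate 1 at 675 CPM and NPM1 in MEK inhibitor replicate 2 at 409.6 CPM. The other low FaDu values were EBNA1BP2 in serum-free replicate 1 at 87.4 CPM, NOP58 in non-invasive EGF replicate 1 at 238 CPM, RRP12 in non-invasive EGF replicate 1 at 37.6 CPM and RRP12 in serum-free replicate 4 at 13.4 CPM. The other high Kyse30 values were FBL in serum-free replicate 4 at 276 CPM, NPM1 in serum-free replicate 4 at 528 CPM, POLR1A in serum-free replicate 3 at 35.0 CPM, POLR1B in non-invasive EGF replicate 3 at 30.8 CPM and RRP12 in cetuximab replicate 1 at 57.8 CPM. The other low Kyse30 values were MRTO4 in cetuximab replicate 4 at 46.1 CPM, POLR1B in MEK inhibitor replicate 1 at 13.2 CPM and UTP18 in non-invasive EGF replicate 1 at 20.1 CPM.

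The EGF change differed between the lines by the interaction test in edgeR for 11 genes, on the log2 scale as Kyse30 minus FaDu: POLR1C at -1.18, FBL at -1.30, DKC1 at -1.34, NOLC1 at -1.06, UTP20 at -1.29, RRP9 at -1.77, CMSS1 at -1.06, NOP16 at -1.48, EBNA1BP2 at -0.90, GNL3L at -1.41 and MRTO4 at -1.21. The MEK inhibitor change differed for UTP20, at 1.07.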

How the results depend on the processing

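Of the 51 genes, the number called is given for each alternative that moved it by over 1.5 times, and the cause was not tested. In a fit of the 2 groups compared it was 0 for FaDu cetuximab against EGF, 12 for FaDu MEK inhibitor against cetuximab, 13 for FaDu invasive against EGF, 8 for Kyse30 cetuximab against EGF, 16 for Kyse30 MEK inhibitor against EGF, 7 for Kyse30 cetuximab against serum-free, 1 for Kyse30 MEK inhibitor against serum-free and 2 for Kyse30 MEK inhibitor against cetuximab. In 1 fit over 40 libraries it was 0 for FaDu cetuximab against EGF, 16 for FaDu MEK inhibitor against EGF, 7 for FaDu MEK inhibitor against serum-free, 10 for FaDu MEK inhibitor against cetuximab, 0 for FaDu invasive against EGF, 7 for Kyse30 cetuximab against EGF, 9 for Kyse30 MEK inhibitor against EGF, 4 for Kyse30 cetuximab against serum-free, 1 for Kyse30 MEK inhibitor against cetuximab and 1 for Kyse30 invasive against EGF. Without 3 Kyse30 libraries it was 5 for Kyse30 cetuximab against EGF, 7 for Kyse30 MEK inhibitor against EGF, 12 for Kyse30 cetuximab against serum-free, 1 for Kyse30 MEK inhibitor against serum-free, 3 for Kyse30 MEK inhibitor against cetuximab, 2 for the interaction of cetuximab against EGF and 2 for the interaction of MEK inhibitor against EGF. With DESeq2 it was 10 for FaDu invasive against EGF, 5 for Kyse30 cetuximab against EGF, 5 for Kyse30 MEK inhibitor against EGF, 1 for Kyse30 MEK inhibitor against cetuximab, 2 for Kyse30 invasive against EGF, 2 for the interaction of cetuximab against EGF and 3 for the interaction of MEK inhibitor against EGF. With limma-voom it was 6 for Kyse30 cetuximab against EGF and 5 for Kyse30 MEK inhibitor against EGF. With RLE scaling it was 1 for Kyse30 MEK inhibitor against EGF. With the stricter filter it was 4 for Kyse30 MEK inhibitor against EGF. With the replicate block it was 1 for Kyse30 cetuximab against serum-free and 0 for the interaction of MEK inhibitor against EGF. Leaving out 1 library at a time gave 0 to 3 for FaDu cetuximab against EGF, 43 to 47 for FaDu cetuximab against serum-free, 45 to 47 for FaDu EGF against serum-free, 1 to 6 for FaDu invasive against EGF, 14 to 31 for FaDu MEK inhibitor against cetuximab, 23 to 39 for FaDu MEK inhibitor against EGF, 8 to 22 for FaDu MEK inhibitor against serum-free, 0 to 1 for the interaction of cetuximab against EGF, 10 to 18 for the interaction of EGF against serum-free, 0 throughout for the interaction of invasive against EGF, 0 to 4 for the interaction of MEK inhibitor against EGF, 1 to 14 for Kyse30 cetuximab against EGF, 0 to 9 for Kyse30 cetuximab against serum-free, 8 to 21 for Kyse30 EGF against serum-free, 0 throughout for Kyse30 invasive against EGF, 0 to 3 for Kyse30 MEK inhibitor against cetuximab, 1 to 16 for Kyse30 MEK inhibitor against EGF, 0 to 1 for Kyse30 MEK inhibitor against serum-free and 15 to 23 for Kyse30 against FaDu in serum-free medium. The replicate block moved no other count by over 1.5 times. Numbers correlated over 0.1 in 12 of 56 pairs (r -0.206 to 0.366). In 16 of the 56, which count a library once per comparison, the best correlation was with its own number. The 184 changes followed for the 33 named genes were those called in the results above, and all of MYC. Apart from MYC, none of them could gain a call. The alternatives gave 3112 values for these changes. Of the values, 2824 kept direction and side of the threshold, 268 lost the call, 1 gained it and 19 changed sign. Those 19 were uncalled log2 changes of MYC, which were -0.53 to 0.35 over the left-out libraries, -0.080 with limma-voom for FaDu MEK inhibitor against EGF; -0.29 to 0.15 over the left-out libraries, 0.028 with limma-voom, 0.002 in the fit of 2 groups for FaDu cetuximab against serum-free; -0.14 to 0.35 over the left-out libraries for FaDu EGF against serum-free; -0.48 to 0.13 over the left-out libraries for FaDu cetuximab against EGF. They were -0.37 to 0.43 over the left-out libraries for FaDu MEK inhibitor against serum-free; -0.35 to 0.50 over the left-out libraries for FaDu MEK inhibitor against cetuximab; -0.40 to 0.31 over the left-out libraries, -0.047 with limma-voom for Kyse30 MEK inhibitor against serum-free; -0.20 to 0.043 over the left-out libraries for Kyse30 invasive against EGF. Depth limits the shallow library, in which 38 of 51 genes had a count.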
